A study of Homo sapiens with 4 samples.

Results

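The 119 small nucleolar and small Cajal body RNA genes with at least 20 reads over 4 libraries were followed through a purification of RNAs bound to a transfected microRNA. Small nucleolar RNAs (snoRNAs) are short noncoding RNAs that work inside protein complexes, mostly in the nucleolus, and in human cells most are cut out of the introns of host genes. Box H/ACA snoRNAs (SNORA genes) guide the conversion of uridine to pseudouridine, and box C/D snoRNAs (SNORD genes) guide the methylation of the ribose, mainly in ribosomal RNA, while a few such as U3 and U17 are needed for cutting the ribosomal RNA precursor. Small Cajal body RNAs (SCARNA genes) carry the motifs of either class, or of both, and guide the same changes in the spliceosomal RNAs. Some snoRNAs also give rise to shorter RNAs that have been annotated as microRNAs.

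IGROV1-R10, a human ovarian cancer line, was transfected at 60 nM with a biotin-carrying duplex of miR-491-5p or of a worm microRNA, cel-miR-65, that served as the control. The cells were lysed with a mild detergent and spun to take away debris and nuclei, 10% of the lysate became the input library, and the remainder met streptavidin-coated beads for 4 h, followed by 5 washes (the pull-down, also called the beads here). The 4 groups were therefore the miR-491-5p pull-down, the miR-491-5p input, the control pull-down and the control input, with 1 library each, made from the pooled RNA of 3 experiments in 1 cell line. With 1 library in a group no difference between the microRNAs has a replicate check, and the 95% intervals below cover counting error only.

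The table had 60554 genes, of which 20566 had at least 20 reads. Gene names came from RefSeq positions. Of 495 RefSeq snoRNA and small Cajal body RNA genes outside the repeated SNORD115 and SNORD116 clusters of chromosome 15, 373 had a place in the table, and they matched 388 annotated genes. Of these, 208 were listed at 0 in every library, 61 had between 1 and 19 reads and 119 passed the limit, namely 53 H/ACA, 52 C/D and 14 Cajal body genes. The median annotated length was 135 bases for the H/ACA members (122 to 272), 85 for the C/D members (68 to 791) and 152 for the Cajal body members (125 to 353). Next to the limit, SNORD37 was left out with 19 reads and SNORA19, SNORA77 and SNORD105 with 18 each, while SNORA11B entered with 20, SNORA15B-2 and SNORA30 with 21 each and SNORA35B with 23. A gene that is high on the beads alone could pass this limit, so the counts of members called on each kind of beads were also taken with a limit on the inputs alone.

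Genes at 0 included several of the best known. SNORA73A, SNORD118 (U8, needed for maturing the RNAs of the large ribosomal subunit), SNORD13 (U13) and both entries of SCARNA2 had no read in any library. The counting left out reads that lay over more than 1 gene. All 137 snoRNA genes whose bases were covered completely by exons of another annotated gene were at 0, and these include SNORA73A, SNORD118, SNORD13 and 1 entry of SCARNA2, whose other entry was covered over 98.4% of its length. Of the 209 that no exon of another gene touched, 60 were at 0 and 109 were members, and of the 42 that were covered in part, 11 were at 0 and 10 were members. The 0 values of covered genes therefore say nothing about their RNA.

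The bait is shown because its seed is the stretch that pairs with targets, and the other 4 because they are microRNAs that RefSeq places on snoRNA genes of the table. The sequences are those of RefSeq on GRCh38.p14, written 5′ to 3′ with the seed (bases 2 to 8) in capitals. The bait lies at chr9:20716120-20716141 on the plus strand.
hsa-miR-491-5p: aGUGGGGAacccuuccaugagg
hsa-miR-664a-3p: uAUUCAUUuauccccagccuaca
hsa-miR-1248: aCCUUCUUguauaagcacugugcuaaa
hsa-miR-1291: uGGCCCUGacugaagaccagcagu
hsa-miR-3651: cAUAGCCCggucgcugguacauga
No pair of these seeds was the same. The last 4 lie, in that order, on SNORA36B and SNORA81, with 0 reads in all libraries, on SNORA2C, with 7 reads, and on SNORA84, with 1 read. In all, 7 microRNA hairpins lay on 7 snoRNA or small Cajal body RNA genes of the table, and 0 of those genes were members. The letters that pair with the miR-491-5p seed, UCCCCAC (same strand only), were found in none of the 7 hairpins, and in 13 of 1560 human hairpins (0.833%). That is a statement about these letters alone. The sequences of the members themselves were not used here, so no search for such sites could be made in them.

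One library stood apart. All 8 markers of ovarian carcinoma epithelium were detected, at a summed 1571 reads per 1000000 counted reads (RPM) on the miR-491-5p beads, 1756 in their input, 1616 on the control beads and 2277 in theirs. Markers of liver cells, 8 of 9 with a match in the table, summed to 0.486, 0.201 and 0.304 RPM on the miR-491-5p beads, in their input and on the control beads, and to 55.7 in the control input, where ALB had 1298 reads. Fibroblast markers were at 1.25, 4.92, 1.09 and 12.7 RPM in the same order. The control input enters the control bead ratio, the input ratio and the enrichment below, and the part of these transcripts in the members' values was not tested beyond replacing that input for the control beads.

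Each of the 3 classes took a larger share of the reads on both kinds of beads than in the matching input. The 119 members together had 512 RPM on the miR-491-5p beads, against 154 in the miR-491-5p input (3.32-fold), and 694 on the control beads, against 150 in the control input (4.63-fold). H/ACA members had 162 RPM on the miR-491-5p beads, against 35.5 in their input, and 188 on the control beads, against 39.2 in theirs. C/D members had 256 RPM on the miR-491-5p beads, against 90.4 in their input, and 440 on the control beads, against 82.9 in theirs. Cajal body members had 94.4 RPM on the miR-491-5p beads, against 28.3 in their input, and 65.4 on the control beads, against 27.6 in theirs. The exact 95% (Clopper-Pearson) counting intervals of pull-down and input did not overlap in any class. On this scale, which divides by all counted reads, the median log2 ratio of all genes was itself 0.34 on miR-491-5p beads and 0.19 on control beads.

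A single gene held a large part of the reads of each class. SNORD3A held 72.8% of the C/D reads on the miR-491-5p beads and 75.3% in their input, and 84.9% on the control beads and 72.5% in theirs. SNORA73B held 48.5% of the H/ACA reads on the miR-491-5p beads and 18.2% in their input, and 48.8% on the control beads and 27.6% in theirs. SCARNA7 held 41.6% of the Cajal body reads on the miR-491-5p beads and 50.1% in their input, and 46.1% on the control beads and 55.2% in theirs. Without these 3 genes, an alternative chosen after the values were seen, the remaining 116 members were 3.17-fold higher on the miR-491-5p beads than in their input and 3.12-fold higher on the control beads than in theirs. On the miR-491-5p beads the fold over input without the leading gene was 2.86 for H/ACA (4.55 with it), 3.12 for C/D (2.83) and 3.90 for Cajal body members (3.33). On the control beads it was 3.39 for H/ACA (4.80), 2.93 for C/D (5.31) and 2.85 for Cajal body members (2.37). The 2 pull-downs then differed by 1.05-fold (miR-491-5p over control), against 0.739-fold with them.

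**Figure D1:**
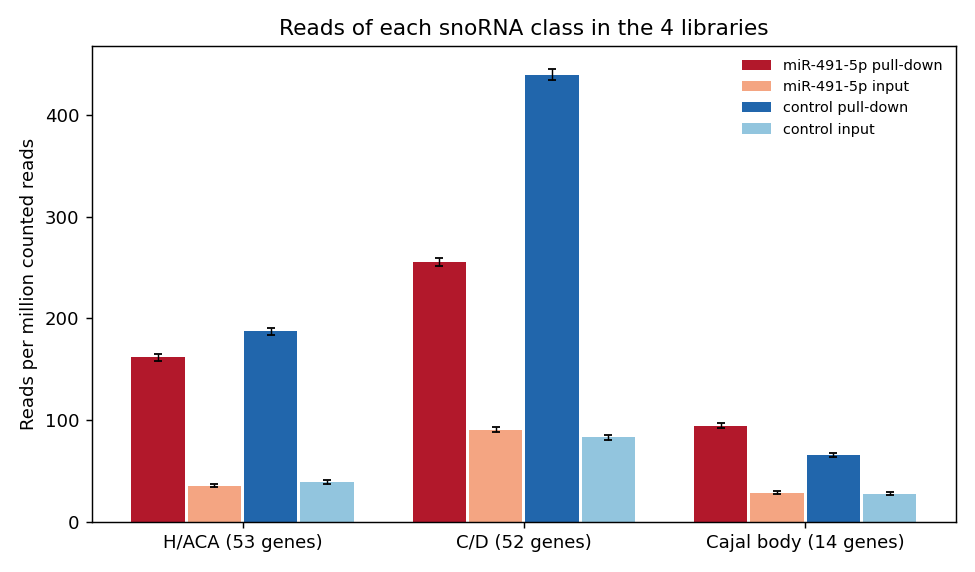
Share of the counted reads, in RPM (vertical axis), held by the H/ACA, C/D and Cajal body members in the miR-491-5p pull-down, the miR-491-5p input, the control pull-down and the control input, with exact 95% counting intervals. In each class both pull-downs stand above both inputs, and the control pull-down is the highest bar for C/D (440) while the miR-491-5p pull-down is the highest for the Cajal body class (94.4).

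Gene by gene, many members were called higher on the beads and none was called lower. Ratios below are log2 ratios of normalised read counts plus 1, and a gene was called when the difference was 2-fold or more with a counting interval that excluded 0. With miR-491-5p, 40 of 119 members were called higher on the beads than in the input and 0 were called lower, beside 12.6% of all 20566 genes called higher and 4.90% called lower. With the control microRNA, 41 members were called higher and 0 lower, beside 13.8% and 8.88% of all genes. With the miR-491-5p input in place of the control input, an alternative chosen after the values were seen, 49 members were called higher and 3 lower on the control beads, beside 13.7% and 8.27% of all genes. The median log2 ratio of the members was 0.66 on miR-491-5p beads and 0.86 on control beads, against 0.03 and 0.05 over all genes. By class the medians were 0.67 and 0.86 for H/ACA, 0.61 and 0.68 for C/D and 0.79 and 1.22 for Cajal body members (miR-491-5p, then control). The 26 members called higher with both microRNAs comprised 13 H/ACA, 8 C/D and 5 Cajal body genes, and 5.49% of all genes were called higher with both.

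With a limit of 10 reads over the 2 inputs in place of the limit over the 4 libraries, chosen after the values were seen, 97 snoRNA genes passed, all of them among the 119. Of these, 30 were called higher and 0 lower with miR-491-5p, beside 9.80% of all genes called higher, and 33 higher and 0 lower with the control, beside 11.9%. Their medians were 0.52 and 0.78, against -0.07 over all genes in both comparisons.

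Pull-down against input was also tested over both transfections with edgeR's quasi-likelihood test, with the transfection as a block and Benjamini-Hochberg adjustment over all 20566 genes. This was the only comparison with 2 libraries on a side. The fit has 1 residual degree of freedom, and the 2 pull-downs carried different microRNAs, so it tests what both had in common. At an adjusted p under 0.05, 22 members rose on the beads and 0 fell, beside 6.30% of all genes that rose and 7.69% that fell. They were 11 of 53 H/ACA, 6 of 52 C/D and 5 of 14 Cajal body members. In 71 of 119 members (59.7%) both pull-downs stood above both inputs, against 32.3% of all genes, and only in SNORA13 and SNORA66 did both pull-downs stand below both inputs (1.68%, against 29.5%). The limit on the inputs alone was not applied to the edgeR counts or to these. Genes that passed through their bead reads are therefore among the 71, such as SNORD62B, with 2 reads in the miR-491-5p input and 0 in the control input.

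SNORA73B (chr1:28508559-28508762, GRCh38, in RCC1) led the H/ACA class; it is a copy of U17, which takes part in cutting the precursor of the small ribosomal subunit RNA. It had 3913 normalised reads on the miR-491-5p beads, against 402 in their input, and 5093 on the control beads, against 662 in the control input. Both pull-downs were far above both inputs, and the edgeR log2 ratio was 3.11 (adjusted p = 3.57e-06), the lowest adjusted p among the members. SNORA73A, the neighbouring copy in the same host, is the one listed at 0.

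SNORA53 (chr12:98599635-98599883, in SLC25A3) had 1725 normalised reads on the miR-491-5p beads, against 497 in their input, and 2323 on the control beads, against 357 in theirs. SNORA22 (chr7:65755526-65755659), a guide for the large ribosomal subunit RNA, had 315 normalised reads on the miR-491-5p beads, against 44.9 in their input, and 399 on the control beads, against 77.1 in theirs. SNORA23 (chr11:9428773-9428954, in IPO7) had 201 against 77.3 normalised reads with miR-491-5p and 295 against 109 with the control (pull-down against input). All 3 stood above both inputs on both kinds of beads, with edgeR log2 ratios of 2.24 (adjusted p = 0.000183) for SNORA53, 2.58 (0.000145) for SNORA22 and 1.40 (0.00704) for SNORA23. The other H/ACA members that rose were SNORA74A, SNORA74B, SNORA12, SNORA71A, SNORA49, SNORA22C and SNORA47, with edgeR log2 ratios between 1.44 and 2.43.

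SNORD3A (chr17:19188016-19188714), the U3 RNA that starts the cutting of the ribosomal RNA precursor, was the member with most reads. It had 9311 normalised reads on the miR-491-5p beads, against 4239 in their input, and 20767 on the control beads, against 3684 in the control input. It was thus highest on the control beads, and the inputs differed little. Its edgeR log2 ratio was 1.81 (adjusted p = 0.00229). The U3 genes SNORD3A, SNORD3B-1, SNORD3B-2 and SNORD3C are near-identical copies, each annotated here as a longer gene that holds the RefSeq one, and reads that fit several places were left out, so the division of reads among them is uncertain.

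SNORD17 (chr20:17962710-17962946), a guide for the large ribosomal subunit RNA, had 1793 normalised reads on the miR-491-5p beads, against 351 in their input, and 1529 on the control beads, against 375 in theirs. SNORD15B (chr11:75404421-75404566, in RPS3), also a guide for that RNA, had 201 against 84.6 normalised reads with miR-491-5p and 315 against 52.7 with the control (pull-down against input). The edgeR log2 ratio was 2.19 for SNORD17 (adjusted p = 0.000113) and 1.88 for SNORD15B (adjusted p = 0.00371). SNORD3C (2.59, adjusted p = 0.00281), SNORD3B-1 (adjusted p = 0.016) and SNORD19 (2.70, adjusted p = 0.0486) also rose. SNORD19 rested on few reads, with 20 against 4 reads with miR-491-5p and 37 against 2 with the control (pull-down against input).

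SCARNA7 (chr3:160514907-160515236, in KPNA4), a guide for the spliceosomal U1 RNA, had 1959 normalised reads on the miR-491-5p beads, against 884 in their input, and 1678 on the control beads, against 934 in theirs. SCARNA5 (chr2:233275727-233276002, in ATG16L1), with both motif classes, had 952 against 180 normalised reads with miR-491-5p and 654 against 216 with the control (pull-down against input). SCARNA21 (chr17:7906122-7906260) had 547 against 173 normalised reads with miR-491-5p and 194 against 78.4 with the control. The edgeR log2 ratios were 1.00 for SCARNA7 (adjusted p = 0.0129), 2.00 for SCARNA5 (0.00056) and 1.49 for SCARNA21 (0.00465). SCARNA13 (1.92, adjusted p = 0.00173) and SCARNA6 (1.92, adjusted p = 0.00348) rose as well. SCARNA22 (chr4:1974636-1974760), with 264 against 215 normalised reads with miR-491-5p and 297 against 193 with the control, did not pass the test (log2 ratio 0.46, adjusted p = 0.287).

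**Figure D2:**
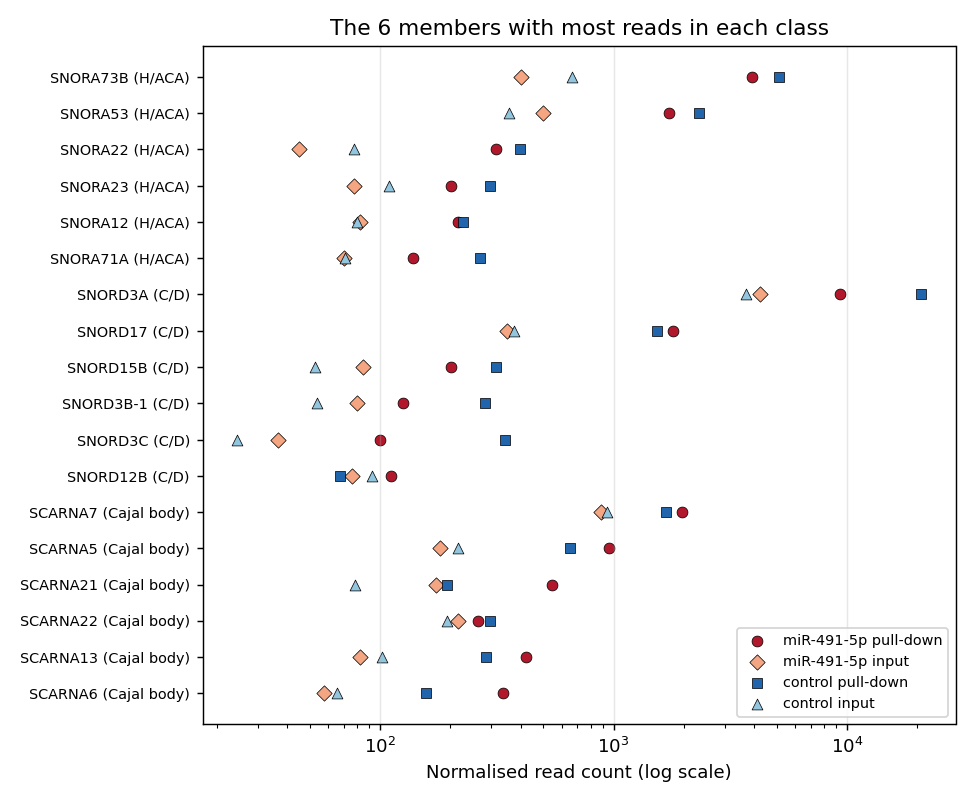
Normalised read counts (horizontal log axis) of the 6 members with most reads in each class, with 1 symbol per library. Both pull-downs lie to the right of both inputs in 17 of the 18 genes, the exception being SNORD12B.

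Levels per length were compared as normalised reads per kilobase of annotated exon. On that scale SNORA73B stood at 19184 and SNORD3A at 13321 on the miR-491-5p beads, the 2 highest levels there. In the matching input SNORD3A was highest at 6064, followed by SCARNA7 at 2679, SNORA53 at 1997 and SNORA73B at 1972. On the control beads SNORA73B stood at 24966 and SNORD3A at 29710, and in the matching input SNORA73B stood at 3244 and SNORD3A at 5270, again the 2 highest. The annotated length of SNORD3A is that of the longer gene, which lowers its level per length.

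Members were also described by annotated length. The 20 members over 160 bases had median log2 ratios of 1.40 on miR-491-5p beads and 1.54 on control beads, and 13 of them rose in the edgeR test. The 61 members of 100 to 160 bases had medians of 0.61 and 0.85, and 8 rose. The 38 members under 100 bases, which were all C/D genes, had medians of 0.53 and 0.63, and 1 rose. This order did not hold within the C/D class, whose members over 160, of 100 to 160 and under 100 bases had medians of 0.66, 0.85 and 0.53 on miR-491-5p beads, and of 2.02, 0.27 and 0.63 on control beads. SNORD91A, SNORD91B and SNORA71B count as long only through the longer annotated gene. Median reads over the 4 libraries were 578, 101 and 73 in the 3 length groups, from long to short. Across the 119 genes, which share libraries and depth, length correlated with total reads at Pearson r = 0.54 (Spearman rho = 0.40) and with the mean bead ratio at r = 0.26 (rho = 0.31). Class, length and depth move together here, and their separate parts in the bead ratio were not tested.

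**Figure D3:**
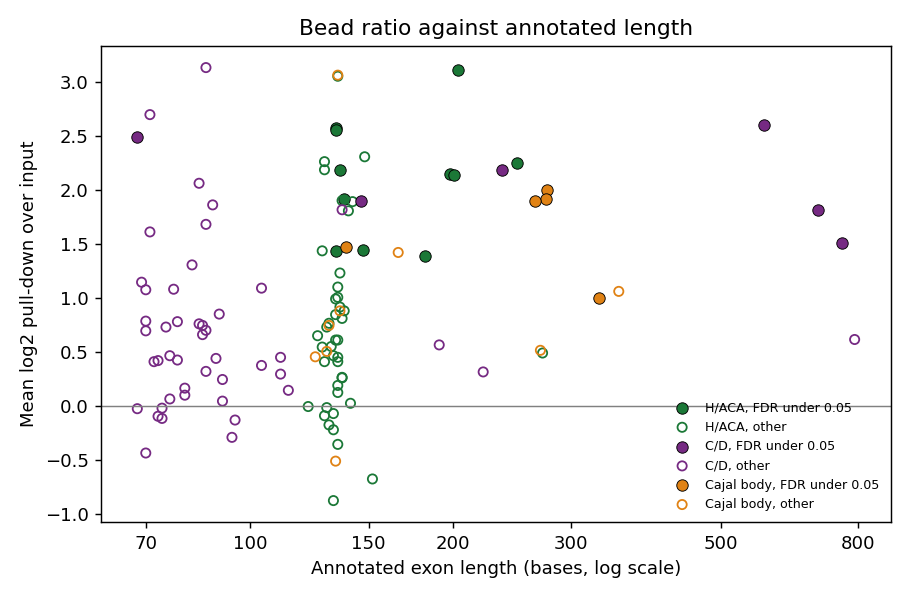
Mean log2 pull-down over input of the 2 transfections (vertical axis) against annotated exon length in bases (horizontal log axis) for the 119 members, with filled symbols for an edgeR adjusted p under 0.05. Of the 22 filled symbols, 13 lie above 160 bases and 1 below 100 bases.

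Most members stood above the genes that span them, called hosts here. For 105 members the longest annotated gene that spans the snoRNA lay on the same strand, and there were 84 such hosts. This rule goes by span alone, so a host need not be the gene whose intron carries the snoRNA. SNORD17, for example, was paired with an unnamed gene of 75 reads. The members' median log2 pull-down over input was 0.61 on miR-491-5p beads and 0.81 on control beads, and that of the paired hosts was -0.29 and -0.44. The member's ratio was above its host's in 93 of 105 pairs with miR-491-5p and in 93 of 105 with the control. The limit on the inputs alone was not applied to these medians and pairs. Members that passed through their bead reads are therefore among them, such as SNORD62B, with 2 reads in the miR-491-5p input and 0 in the control input. Passing in this way favours a high bead ratio in the member, and its part in these counts was not tested. For SNORA73B the log2 ratio was 3.28 on miR-491-5p beads and 2.94 on control beads, and for its host RCC1 it was -0.40 and -0.79. For SNORD15B it was 1.23 and 2.56, and for its host RPS3, a ribosomal protein gene, it was -0.72 and -0.96. Across the 105 pairs, some of which share a host, the ratios of member and host correlated at r = 0.22 on miR-491-5p beads and r = 0.13 on control beads.

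Members of a shared host were set side by side. SCARNA5 and SCARNA6, both hosted by ATG16L1, had log2 pull-down over input of 2.40 and 2.53 with miR-491-5p and 1.59 and 1.26 with the control, while ATG16L1 itself had 0.45 and 1.33. Of the 4 SNORA71 copies in SNHG17, a noncoding host, SNORA71B had 46.1 against 15.7 normalised reads with miR-491-5p and 34.6 against 50.1 with the control (beads against input), while SNORA71D had 34.8 against 29.3 with miR-491-5p and 40.9 against 11.6 with the control. SNORA71B was thus called higher on the miR-491-5p beads, while its log2 ratio of -0.52 on the control beads was not called. Its reads were counted over a longer annotated gene that holds the RefSeq one. SNORA71D stood clearly above its input on the control beads alone. The copies are alike in sequence, so the division of reads among them is uncertain.

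The proteins of these complexes were described through their mRNAs. Of the 6 genes for H/ACA proteins, 0 rose and 3 fell on the beads in the edgeR test, beside 6.30% and 7.69% of all genes, and their median log2 ratios were -0.74 on miR-491-5p beads and -0.96 on control beads. NOP10, NHP2 and GAR1, parts of the H/ACA core, were the 3 that fell. NOP10 had log2 ratios of -1.08 on miR-491-5p beads and -1.30 on control beads (edgeR adjusted p = 0.00543). DKC1, the pseudouridine synthase itself, had -0.54 and -0.67 and did not pass (adjusted p = 0.109, edgeR). Of the 5 genes for C/D proteins, 0 rose and 2 fell, with medians of -0.60 and -0.79. FBL, the methyltransferase fibrillarin, had -0.82 and -0.87 (edgeR adjusted p = 0.0305), and RRP9, which binds U3, had -0.43 and -1.37 (0.0328). Of 13 assembly and Cajal body factors, 0 rose and 4 fell, with medians of -0.52 and -0.87; RUVBL2, an ATPase of the assembly machinery, had -0.56 and -1.33 (edgeR adjusted p = 0.0214). The 3 list medians thus lay below 0 on both kinds of beads, while 4 single mRNAs lay above 0 on the control beads, namely SNU13 (0.47), RPAP3 (0.16), COIL (0.12) and PARN (0.05).

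Of other nuclear noncoding RNAs measured for comparison, MALAT1 and NEAT1 rose on the beads and RN7SK fell. MALAT1 had log2 ratios of 1.17 on miR-491-5p beads and 1.38 on control beads (edgeR adjusted p = 0.00512), and NEAT1 had 1.26 and 1.13 (0.0053). RN7SK, the RNA that holds back a transcription elongation factor, had -1.79 and -2.26 (edgeR adjusted p = 0.0002). RMRP and RPPH1 were listed at 0, and whether exons of another gene cover them was not examined, so their 0 values say nothing about their RNA. Nuclei were spun out of the lysates, and how much nuclear RNA each lysate still held was not measured.

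The bead ratios of the 2 transfections were set side by side. Across the 119 members, they correlated at r = 0.47 (rho = 0.46), against r = 0.50 (rho = 0.54) over all 20566 genes, as a description over genes that share libraries. Within classes r was 0.63 for 53 H/ACA, 0.39 for 52 C/D and 0.13 for 14 Cajal body members. SNORA73B, SNORA23 and SNORD17 had log2 ratios within 0.5 of each other on the 2 kinds of beads, while SNORD3C had 1.43 on miR-491-5p beads and 3.76 on control beads, and SCARNA1 had -0.14 and 2.98.

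**Figure D4:**
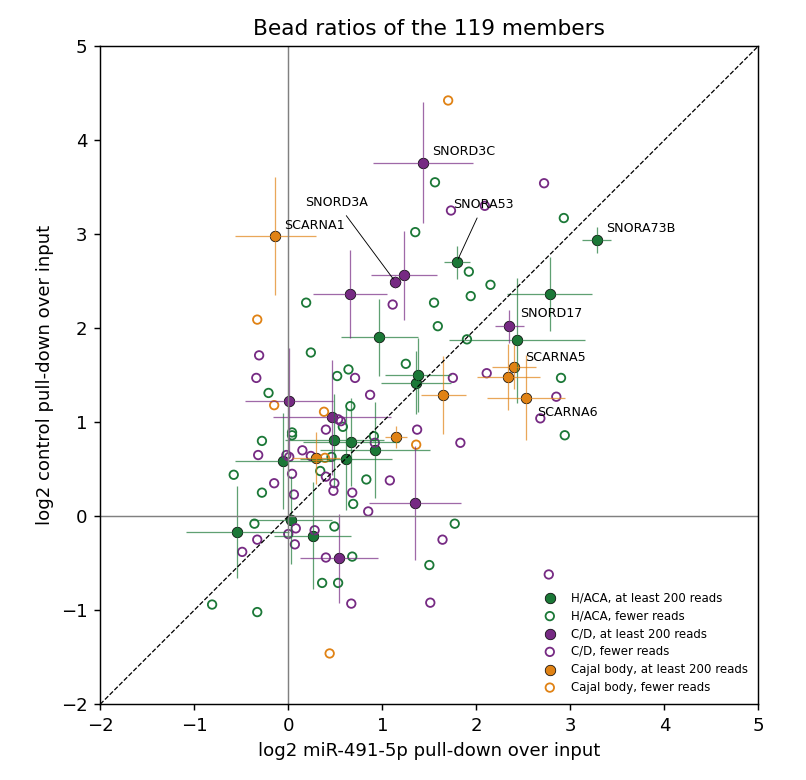
Log2 pull-down over input with the control microRNA (vertical axis) against that with miR-491-5p (horizontal axis) for the 119 members, with 95% counting intervals for those with at least 200 reads and a dashed line of equality. Most points lie above 0 on both axes, SNORA73B at 3.28 and 2.94, and SCARNA1 lies apart at -0.14 and 2.98.

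The study's own measure of binding is the enrichment, the ratio of the 2 pull-downs, miR-491-5p over control, over the same ratio of the inputs. By that measure the members did not stand higher as a group. Of 119 members 9 were called higher and 10 lower, beside 6.05% of all genes called higher and 6.22% called lower, and the median log2 enrichment was -0.17, against 0.00 over all genes. By class, 3 H/ACA members were called higher and 3 lower (median -0.24), 4 C/D higher and 5 lower (-0.10), and 2 Cajal body higher and 2 lower (0.04). The ratio of the pull-downs alone, which does not use the inputs, called 8 members higher and 13 lower, beside 5.54% and 5.44% of all genes, with a median of -0.17 against 0.03. The ratio of the inputs called 6 higher and 6 lower, beside 2.33% and 2.20% of all genes, with a median of 0.04 against 0.00. None of these 3 ratios has a test, since each rests on 1 library per group.

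The members called lower in the enrichment included U3. SNORD3A had a log2 enrichment of -1.36 (95% counting interval -1.44 to -1.28), from the 9311 and 20767 normalised reads of the pull-downs (miR-491-5p, then control) and the 4239 and 3684 of the inputs. The other U3 copies also lay below 0, with -1.70 for SNORD3B-1, -2.33 for SNORD3C and -1.21 for SNORD3B-2. SNORD15B had -1.32 (-1.91 to -0.74). These 5 are all the C/D members called lower, and 4 of them are the U3 copies whose reads cannot be fully told apart.

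SCARNA1 (chr1:27834401-27834566, in PPP1R8), a guide for the spliceosomal U2 RNA, had the lowest enrichment of the members. It had 76.8 normalised reads on the miR-491-5p beads, against 84.6 in their input, and 219 on the control beads, against 27.0 in the control input. It was thus called higher on the control beads alone, the log2 enrichment was -3.12 (-3.88 to -2.35), and both parts of it were called, with a pull-down ratio of -1.50 (-1.84 to -1.16) and an input ratio of 1.61 (0.93 to 2.30). Its host PPP1R8 had an enrichment of -0.25. SCARNA14 had -2.42 (-4.78 to -0.06) on 34 reads in all, with 8 reads in each miR-491-5p library, 16 on the control beads and 2 in their input. The H/ACA members called lower were SNORA80B (-2.08, interval -3.18 to -0.97), SNORA49 (-1.68, -2.95 to -0.40) and SNORA71D (-1.49, -2.71 to -0.28).

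The members called higher in the enrichment mostly had few reads. SNORD82 had the highest value, 3.39 (0.67 to 6.12), from 16 reads on the miR-491-5p beads and 1 in their input, and 9 on the control beads and 10 in theirs. Its pull-down ratio was not called, and the input ratio was -2.76 (-5.23 to -0.29), and the miR-491-5p input held a single read. SNORA80E had 28 and 2 reads on the miR-491-5p beads and in their input, and 35 and 13 on the control beads and in theirs. Its enrichment was 2.08 (0.01 to 4.15), with a pull-down ratio of -0.44, not called, and an input ratio of -2.52 (-4.47 to -0.57). SNORA71B had 2.02 (0.99 to 3.05) and SNORA5A 1.85 (0.56 to 3.13), and in both the pull-down ratio was not called and the input ratio was called lower.

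SNORD14E, a copy of U14 that takes part in making the small ribosomal subunit RNA, had more reads. It had 116 normalised reads on the miR-491-5p beads, against 44.9 in their input, and 49.7 on the control beads, against 45.0 in theirs. The miR-491-5p pull-down thus stood above the 3 other libraries, which lay close together, and the log2 enrichment was 1.21 (0.43 to 1.99) with a pull-down ratio of 1.21 (0.77 to 1.65). SCARNA6 had 336 normalised reads on the miR-491-5p beads, against 57.5 in their input, and 158 on the control beads, against 65.5 in theirs. It was high on both kinds of beads and higher on the miR-491-5p beads, with an enrichment of 1.27 (0.67 to 1.87) beside a pull-down ratio of 1.08 (0.83 to 1.34). SNORD30, SNORD83A and SCARNA18 were also called higher in both measures, with enrichments of 1.89 (0.36 to 3.42), 1.60 (0.51 to 2.69) and 1.91 (0.04 to 3.77). They rested on fewer reads, 75, 118 and 52 over the 4 libraries, and SCARNA18 had 4 on the control beads. SNORD30 was covered over 48.6% of its length by exons of another gene. SCARNA21 had a pull-down ratio of 1.49 (1.27 to 1.71) beside an input ratio of 1.14 (0.71 to 1.56), and was not called in the enrichment.

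**Figure D5:**
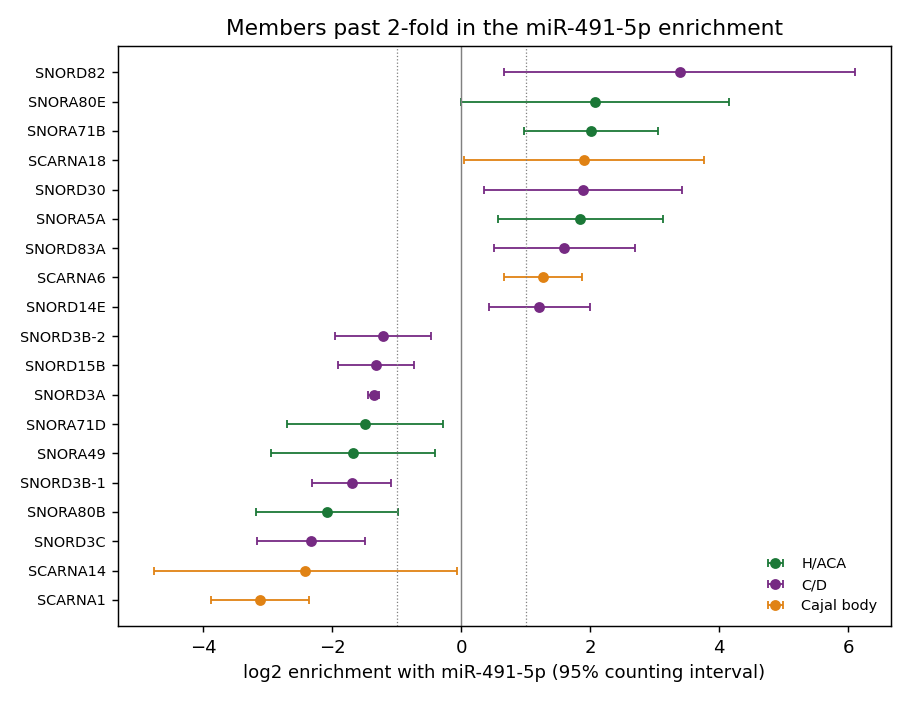
Log2 enrichment with miR-491-5p (horizontal axis) and its 95% counting interval for the 19 members called, coloured by class, with dotted lines at 2-fold. Of these, 9 lie to the right of 0, led by SNORD82 at 3.39, and 10 to the left, with SCARNA1 at -3.12 and the narrow interval of SNORD3A at -1.36.

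Where an input held no read, the observed bead count was set against 3 reads in that library, which leaves out the counting error of the beads. For SCARNA18B, which had 0 reads in the control input, the control beads were 5.30-fold above that level, and its ratio was called. SNORD62B, SNORD56B and SNORA70F stood 2.76-fold, 2.30-fold and 2.07-fold above it there, and none of them was called on the control beads. The intervals of the log2 ratios included 0 for SNORD62B (-0.54 to 7.62) and SNORD56B (-0.79 to 7.40). SNORA11B, which had 0 reads in the miR-491-5p input, stood 2.06-fold above that level on the miR-491-5p beads and was not called there. All of these genes passed the read limit through their bead reads.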

How the data were processed

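The deposited values were whole-number read counts per gene, which the authors obtained from hg38 alignments and GENCODE release 24 genes by featureCounts 1.5.0-p1, without regard to strand and without duplicate, multi-mapping or gene-overlapping reads, per the file headers. Libraries came from a stranded kit, per the labels' protocols. STAR, DESeq2 1.10.1 and GRCh38 come from the submitters' processing notes. A snoRNA and a gene that spans it on the opposite strand cannot be told apart in such counts. For 10 members the longest annotated gene that spans them lay on the opposite strand.

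Names were given by RefSeq GRCh38.p14 positions, with both ends within 20 bp, or, for 8 genes (7 of them members), the RefSeq gene inside an annotated gene of at most 1000 bp, a step added after the files were seen. Groups were taken from the sample titles. Total counts were 61705443 on the miR-491-5p beads, 59588552 in their input, 62582646 on the control beads and 47679684 in theirs. Counts were divided by DESeq2 1.42.0 size factors (1.24, 0.957, 1.13 and 0.778 in that order), and log2 ratios were taken with a pseudocount of 1. Intervals were 1.96 standard errors of the counting error (0.5 added to each count). PCR reads are not independent molecules. The paired test was edgeR 4.0.16 in R 4.3.3, with the size factors as offsets. Both calculations were tested on simulated counts, and the outcome is not given here. For edgeR these counts had a fixed spread and no difference between the transfections, unlike these data. They therefore do not show its error rate here.

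The members, gene lists and tests were chosen with earlier results of these data known. Named members were, in each class, the 4 with most reads, the 2 highest and 2 lowest called in each ratio, the members beside the read limit and SNORA73A, SNORA73B, SNORD3A, SNORD118, SNORD13, SCARNA1 and SCARNA2. Others were named after their values were seen. Alternatives were another scaling, filter, pseudocount, name rule, tool and set of members.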

Additional observations from a re-analysis of the deposited data

How the results depend on the processing

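Scaling by TMM, leaving out overlapped genes and applying no filter kept every count of called members within 1.5 times. Scaling by total counts did so too, while it moved the median log2 ratio of all genes to 0.34 for miR-491-5p beads over input and 0.19 for control beads over input. In the edgeR test the members that rose numbered 19 with DESeq2, 18 without the transfection as a block, 27 with total counts, 24 with TMM, 25 without a filter and 17 of 30 at a mean normalised count of at least 50, with 0 falling in each. In the main fit 6.30% of all genes rose, and the shares in the other fits are not given here. With 1 pair left there is no test, and only the counts by fold given above remain. These were 40 and 41 members called higher, beside 12.6% and 13.8% of all genes, and they are no further check. Stricter sets held fewer genes, namely 30 members at the mean of 50, 65 with both ends identical and 46 without families of several genes. In that order, 16, 20 and 16 were called higher on miR-491-5p beads, and 18, 23 and 16 on control beads. In the enrichment 2, 4 and 3 were called higher and 6, 3 and 3 lower. In the pull-down ratio 3, 3 and 3 were called higher and 4, 7 and 3 lower. In the input ratio 2, 3 and 1 were called higher and 0, 2 and 1 lower. At the mean of 50, 5.34% of all genes were called higher on miR-491-5p beads and 8.61% on control beads. In the enrichment 4.46% were then higher and 5.32% lower, in the pull-down ratio 2.50% and 3.17%, and in the input ratio 0.727% and 0.513%. With identical ends and without families, 12.6% and 13.8% were higher on the beads, and the other ratios had shares close to those above. With a pseudocount of 5, 5 members were called higher in the pull-down ratio, beside 3.01% of all genes. In the input ratio 3 were then called higher and 1 lower, beside 1.02% and 0.934%. With the miR-491-5p input in place of the control input, 3 were called lower on the control beads, beside 8.27% of all genes. At the mean of 50 the C/D median was 1.18 on miR-491-5p beads, 2.19 on control beads and -1.26 in the enrichment. It then rested on 8 genes, among them the U3 copies SNORD3A, SNORD3B-1, SNORD3B-2 and SNORD3C, whose reads cannot be fully told apart. The Cajal body median with miR-491-5p was 1.10 with total counts, 1.65 at the mean of 50, 0.44 without overlapped genes, and 0.39 both with identical ends and without families. In the pull-down ratio the Cajal body median was 0.54 at the mean of 50 and turned to -0.12 with identical ends and without families, and the C/D median turned to 0.22 without families. These sets hold fewer genes, and no other cause was tested. No paired analysis was possible between the microRNAs because each group had 1 library. Depth limits what can be called, as the members under 100 bases had a median of 73 reads and those over 160 bases one of 578.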
